A study of Mus musculus with 18 samples.

Results

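The libraries described here are the 12 of left ventricle sequenced after 21 days of isoproterenol infusion. The question is which genes rose and fell together across these libraries. They make up 12 of the 18 libraries of the study. The other 6 are saline controls and entered no calculation here. All mice were male, wild-type C57BL/6J, aged 12 weeks, and each received isoproterenol, a catecholamine that activates β-adrenergic receptors, at 30 mg/kg/day from an osmotic pump. In 6 libraries this was the only drug, with saline as the injection that the design gives in place of minocycline. In the other 6 the mice also received daily intraperitoneal injections of minocycline, a tetracycline antibiotic, at 50 mg/kg. The libraries are named Isoproterenol 1 to 6 and Isoproterenol and minocycline 1 to 6. The log2-CPM of each gene (CPM, with TMM scaling) was centred on the mean of its own treatment, so that only differences between libraries of the same treatment remained. Every gene was then set against the centred level of 3 anchor genes, Atp2a2, Nppb and Col1a1. The treatments were not compared with each other.

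Atp2a2 encodes SERCA2, the pump that returns calcium to the sarcoplasmic reticulum after each contraction. Phospholamban, encoded by Pln, restrains this pump until protein kinase A, the kinase downstream of β-adrenergic receptors, phosphorylates it, and lower SERCA2 is a known feature of failing heart muscle. Nppb encodes B-type natriuretic peptide, which cardiomyocytes secrete under wall stress. Col1a1 encodes a chain of type I collagen, the main fibrillar collagen that fibroblasts lay down in cardiac fibrosis. By these roles the anchors mark calcium handling, myocyte stress and fibrosis. In these libraries, however, 25 other genes of hypertrophy and wall stress had a median correlation (r) of only 0.13 with Nppb.

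The infused libraries held 14203041 to 21772148 counts, and genes of the mitochondrial genome took 40.1 to 47.7% of them. Ventricular muscle markers were high in all 12, with Myh6 at 22327 to 28861 CPM, Myl2 at 5643 to 6940 CPM and Tnnt2 at 6197 to 8649 CPM. The atrial light chain Myl7 ranged from 8.62 to 212 CPM and was highest in Isoproterenol and minocycline 2 and Isoproterenol 5. No pair of libraries of the same treatment held the same counts beyond sampling noise (chi-square over its degrees of freedom 5.30 to 33.3). Pairs across the treatments were not examined. The first principal component of the centred values held 29.2% of the variance and correlated with Atp2a2 (r = 0.92) and Col1a1 (r = −0.83), and the second held 12.3% and correlated with Nppb (r = −0.86, n = 12 for each). The labels do not say that each library is 1 animal, and the protocol speaks of pooled RNA, so p-values measure the spread between libraries. In bulk tissue, fewer cells of a type and less RNA per cell cannot be told apart.

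Atp2a2 lay between 7284 and 9353 CPM, with a median of 8808 CPM, in the isoproterenol libraries. With minocycline it lay between 5029 and 9943 CPM, with a median of 8518 CPM. Isoproterenol and minocycline 4 and 6 were lowest, well under the remaining libraries, and the treatments overlapped. Nppb ranged from 62.7 to 118 CPM (median 95.8) after isoproterenol and from 72.4 to 325 CPM (median 148) after both drugs, highest in Isoproterenol and minocycline 6. Col1a1 ranged from 81.7 to 132 CPM (median 100.1) and from 60.7 to 143 CPM (median 87.5) in the same order, highest again in Isoproterenol and minocycline 6. The anchors were chosen by their measured spread and relations in these same libraries, so their values and mutual correlations are a description with no test. Centred Atp2a2 and Col1a1 were opposed (r = −0.81, Spearman's rho = −0.80, n = 12), at r = −0.81 within the isoproterenol libraries and −0.82 within those with minocycline. Without the 2 libraries farthest from the median of Atp2a2, which are the same libraries 4 and 6, r was −0.58. Atp2a2 and Nppb gave r = −0.45, which was 0.60 within isoproterenol and −0.64 with minocycline, and 0.45 without those 2 libraries. Nppb and Col1a1 gave r = 0.35, −0.07 and 0.48 in the same order. The calcium pump and the collagen were thus opposed in both treatments. The r of Nppb with Atp2a2 was positive within isoproterenol and negative with minocycline, whereas its r with Col1a1 within isoproterenol was only −0.07. Whether the treatments differ in these relations was not tested.

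**Figure D1:**
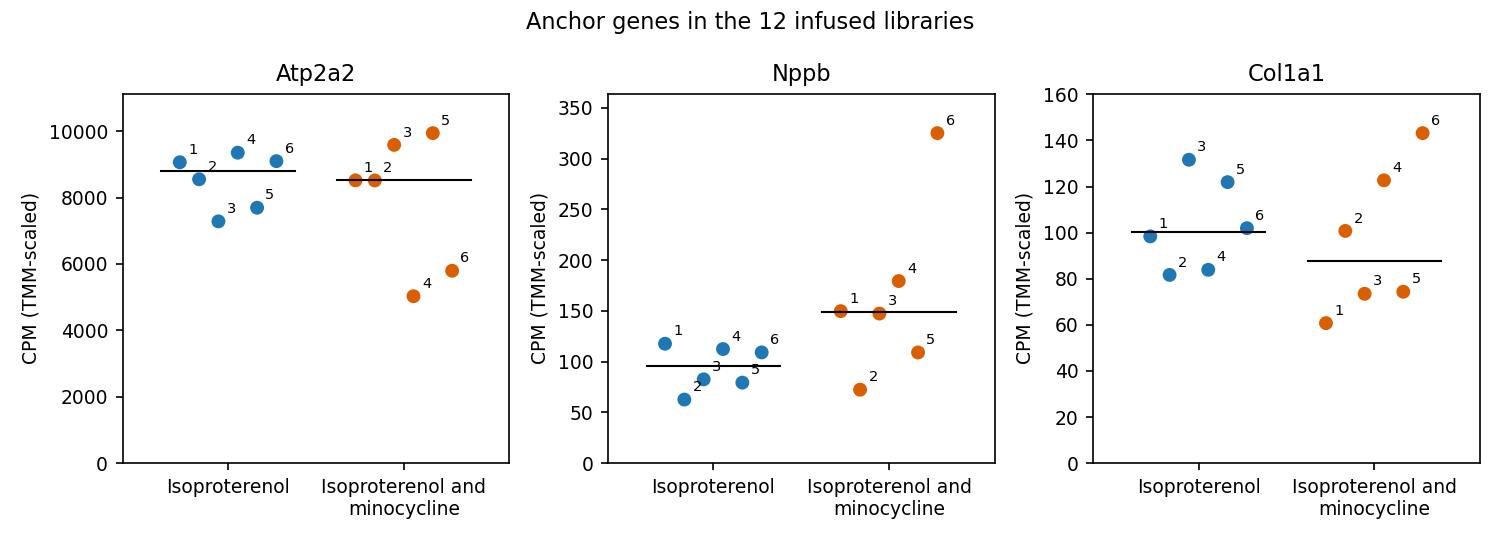
CPM of Atp2a2, Nppb and Col1a1 (TMM-scaled, linear axes from 0) in the 12 infused libraries; each point is 1 library, numbered within its treatment, and the black line is the median of 6. Isoproterenol and minocycline 4 and 6 are lowest in Atp2a2, and library 6 is highest in Nppb (325 CPM) and Col1a1 (143 CPM).

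Nppb and Nppa, which encode the B-type and atrial natriuretic peptides, are neighbours on the same strand of chromosome 4 in GRCm38, with 13.5 kb and no other annotated gene between them. The 250 bases before each RefSeq start (GRCm38.p6, plus strand, 5′ to 3′) are shown because these genes, often used together as stress markers, did not vary together here. Nppb is chr4:147985650-147985899 and Nppa is chr4:148000472-148000721. Capitals mark matches, on either strand, to GATAA, the core read by zinc-finger factors of cardiac genes, to CATTCC, which TEAD proteins bind, and to TATAAA, the core promoter box.
Nppb: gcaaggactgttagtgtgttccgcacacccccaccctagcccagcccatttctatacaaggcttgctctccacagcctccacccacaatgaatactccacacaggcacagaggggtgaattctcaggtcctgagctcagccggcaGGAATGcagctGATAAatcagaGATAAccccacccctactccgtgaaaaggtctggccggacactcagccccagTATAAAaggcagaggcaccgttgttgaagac
Nppa: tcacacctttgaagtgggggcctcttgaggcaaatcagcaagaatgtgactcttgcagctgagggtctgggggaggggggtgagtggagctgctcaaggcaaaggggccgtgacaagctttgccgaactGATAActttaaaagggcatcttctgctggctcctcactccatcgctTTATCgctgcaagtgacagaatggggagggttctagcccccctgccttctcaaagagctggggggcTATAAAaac
Counting −1 as the last base printed, Nppb holds the TEAD letters on the minus strand at −105, GATAA at −94 and −83 and TATAAA at −31. Nppa holds GATAA at −121, the same letters on the minus strand at −75, and TATAAA at −9. CATTCC was not among the letters of the Nppa window. In the RefSeq promoter windows of 9918 tested genes (250 bases before to 50 after the start), 19.1% held GATAA, 14.6% CATTCC and 8.87% TATAAA. A match is a description of the letters only.

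Genes were tested with edgeR's quasi-likelihood test for a slope on the centred anchor, which gives the log2 change of a gene per 1 log2 unit of the anchor. Of 13075 genes, 2839 (21.7%) had a slope on Atp2a2 that passed 0.05 after Benjamini-Hochberg adjustment. Of these, 1600 (12.2%) varied with Atp2a2 and 1239 (9.48%) against it. With plain library totals in place of TMM scaling the split was 1386 with and 522 against, that is 72.6% in the direction of Atp2a2 in place of 56.4%. Libraries low in Atp2a2 were low in the other calcium-cycling genes, in ion channels and in fatty acid oxidation genes. The same libraries were high in collagens, other matrix genes, and markers of fibroblasts, mural cells, endothelium and macrophages.

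**Figure D2:**
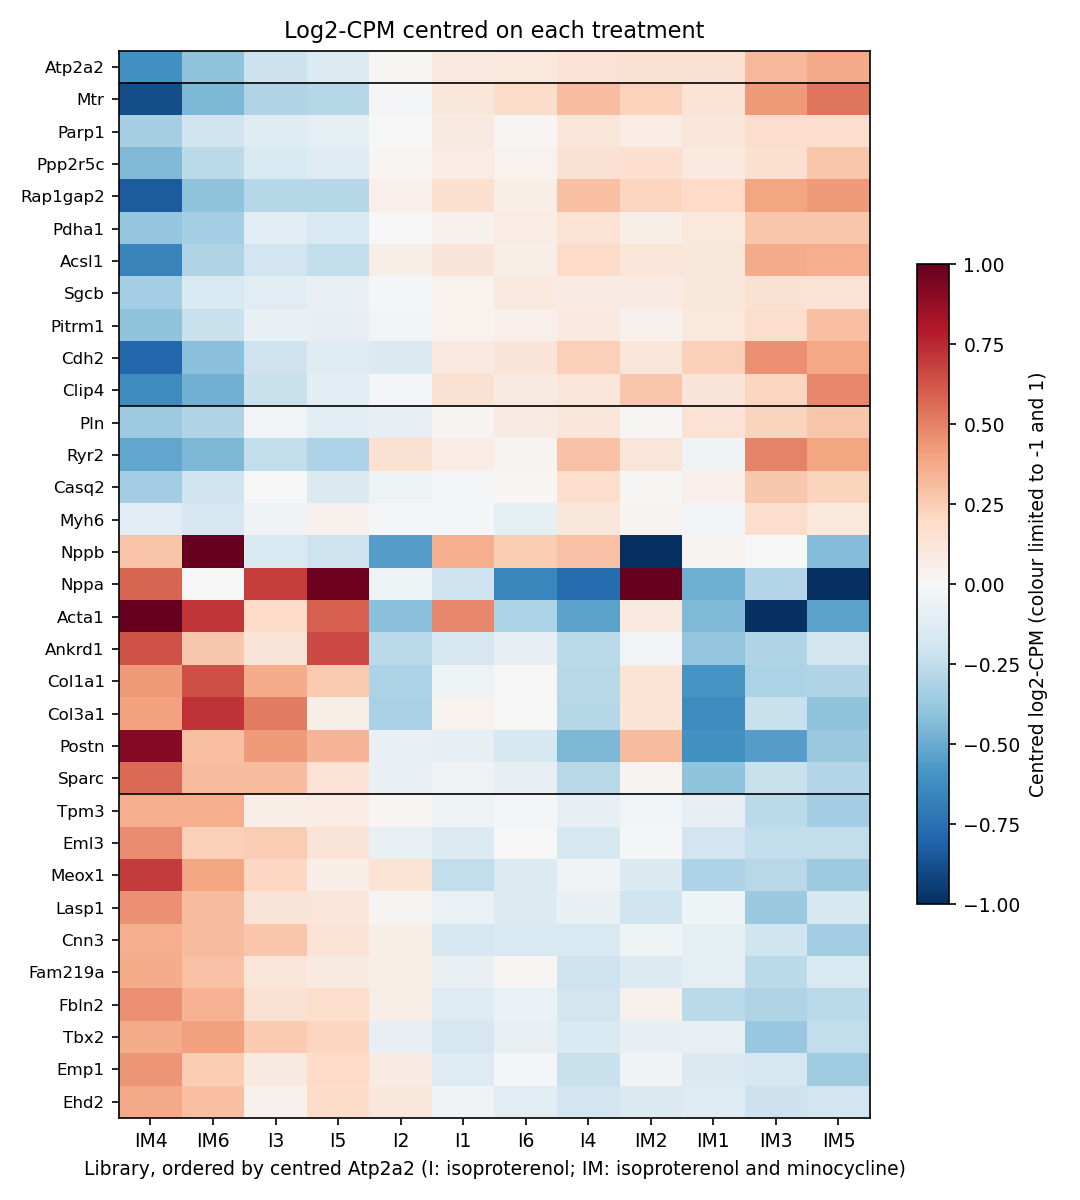
Centred log2-CPM (colour, limited to −1 and 1) of Atp2a2, the 10 genes most like it, 12 genes reported in any case and the 10 most opposed genes; columns are the 12 infused libraries in the order of centred Atp2a2. The upper block runs from blue at the left to red at the right and the lower block from red to blue. Nppb and Nppa follow neither order closely over the 12 columns, although Nppa runs against Atp2a2 within the isoproterenol columns.

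The gene most like Atp2a2 was Mtr, which encodes methionine synthase. It spanned 30.5 to 46.4 CPM with a median of 38.8 in the isoproterenol libraries and 17.3 to 46.4 CPM with a median of 36.4 with minocycline. Its lowest libraries were Isoproterenol and minocycline 4 and 6, the ones lowest in Atp2a2, and its highest included Isoproterenol 4, the isoproterenol library highest in Atp2a2. Centred Mtr followed Atp2a2 with r = 0.99 and rho = 0.95 (unadjusted exact permutation p = 3.86e-06 for r, 2-sided, over the 518400 pairings within treatments, n = 12), r = 0.97 within isoproterenol, 0.99 with minocycline and 0.97 without the 2 farthest libraries. Its slope was 1.39 ± 0.10 (SE, edgeR adjusted p = 4.24e-07). Mtr lies on chromosome 13 at 12186542 to 12258113, 79.6 kb beyond the end of Ryr2, with 3 predicted genes between them.

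The next genes by likeness, all at r = 0.98, were Parp1, a DNA repair enzyme, Ppp2r5c, a regulatory subunit of protein phosphatase 2A, Rap1gap2, an activator of GTP hydrolysis by Rap1, and Pdha1, a subunit of pyruvate dehydrogenase. Acsl1, which activates long-chain fatty acids, Sgcb, a sarcoglycan of the muscle membrane, Pitrm1, a mitochondrial peptidase, Cdh2, the N-cadherin of intercalated discs, and Clip4 followed, also at 0.98. Pitrm1 overlaps Pfkp, and reads of the pair may be shared. Acsl1 had 427 to 580 CPM (median 527) in isoproterenol and 274 to 566 CPM (median 473) in the libraries with minocycline. Cdh2 had 152 to 207 CPM (median 175) and 87.3 to 207 CPM (median 171). Both were lowest in Isoproterenol and minocycline 4 and 6. Slopes differed in size although the correlations did not: 1.20 ± 0.09 for Cdh2 and 1.01 ± 0.08 for Acsl1, but 0.72 ± 0.07 for Pdha1, 0.53 ± 0.08 for Parp1 and 0.49 ± 0.07 for Sgcb. Within each treatment, r of these 9 genes lay at 0.89 or above.

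Calcium-cycling genes of the sarcoplasmic reticulum followed Atp2a2. Of 17 tested members of this list, 12 were called in its direction and 0 against it, with a median r of 0.81 where all genes had −0.08. Pln had 2976 to 3501 CPM (median 3229.8) after isoproterenol and 2401 to 3739 CPM (median 3261) with minocycline. Ryr2, the calcium release channel, had 867 to 1316 CPM (median 1111) and 634 to 1280.4 CPM (median 938). Casq2, the calcium buffer of the reticulum, had 649 to 810.1 CPM (median 715) and 508 to 781 CPM (median 663). In all of these, Isoproterenol and minocycline 4 and 6 were the lowest libraries, and Isoproterenol 4 was the highest of its treatment. Slopes were 1.04 ± 0.12 for Ryr2 (r = 0.93, adjusted p = 1.01e-05), 0.63 ± 0.08 for Pln (r = 0.95, adjusted p = 3.37e-05) and 0.56 ± 0.09 for Casq2 (r = 0.92, adjusted p = 0.000198). Slc8a1, the sodium-calcium exchanger of the surface membrane, changed more than Atp2a2 itself, from 33.3 to 83.7 CPM (median 52.1) and from 18.0 to 81.2 CPM (median 56.1). Its slope was 2.32 ± 0.19 (r = 0.97, adjusted p = 4.19e-06). The median r of the list was 0.57 within isoproterenol and 0.88 with minocycline. Without Isoproterenol and minocycline 4 and 6 it was 0.67 and 3 of 17 members were called. Of all 13211 genes tested without these libraries, 485 were called with Atp2a2 and 235 against it. This is the background for every list count for Atp2a2 given without them.

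Sarcomere genes were called in both directions. Of 24 members, 6 were called with Atp2a2 and 4 against it, where 12.2% and 9.48% of all genes were. Their median r was 0.13 (3 and 0 called without Isoproterenol and minocycline 4 and 6, median r 0.062), and it depended on the processing, as given below. The mean of the list gave r = 0.60 with Atp2a2, 0.37 within isoproterenol and 0.65 with minocycline. Ttn, the giant spring protein titin, had a slope of 0.70 ± 0.09 (r = 0.93), and Nebl, a thin-filament protein of the Z-disc, 0.97 ± 0.11 (r = 0.95). Mybpc3, myosin-binding protein C, gave r = 0.80. Myh6, the α-myosin heavy chain, had 22328 to 25939 CPM (median 23771) and 22844 to 28861 CPM (median 25582). It was lowest in Isoproterenol 6 and Isoproterenol and minocycline 6. Myh6 was called with a slope of only 0.26 ± 0.09 (r = 0.74, adjusted p = 0.0464), and r was 0.13 within isoproterenol and 0.88 with minocycline. Tnnc1, the calcium sensor troponin C, varied against Atp2a2 (r = −0.83, slope −0.32 ± 0.08), as did Myl3, Myoz2 and Des, a ventricular light chain, a Z-disc protein and the muscle intermediate filament desmin.

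Ion channel genes followed Atp2a2 in 14 of 26 members, with none called against it and a median r of 0.71. Kcnd2, a subunit of the transient outward potassium channel, had a slope of 1.68 ± 0.19 (r = 0.95, adjusted p = 8.14e-06). Kcnj11, a pore subunit of the ATP-sensitive potassium channel, gave r = 0.89 overall but 0.36 within isoproterenol. Abcc9, the regulatory subunit of that channel and also a pericyte marker, gave r = 0.93, where 15 of the 19 mural cell markers were called against Atp2a2. The median r of the list was 0.38 within isoproterenol and 0.85 with minocycline. Without Isoproterenol and minocycline 4 and 6 it was 0.46, with 6 members called with Atp2a2 and 1 against it.

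Genes of the β-adrenergic pathway, which the infused drug acts through, were called with Atp2a2 in 12 of 28 members and against it in 3, with a median r of 0.49. At the receptor level, Adrb1, the main cardiac β-receptor, varied with Atp2a2 (r = 0.70). Among adenylyl cyclases, Adcy9 had 5.83 to 9.86 CPM (median 7.96) and 2.54 to 10.4 CPM (median 7.73), with a slope of 1.76 ± 0.21 (r = 0.95). Akap6, which anchors protein kinase A at the nuclear envelope and the reticulum, had 74.5 to 118 CPM (median 92.5) and 56.4 to 115 CPM (median 89.8). Both were lowest in Isoproterenol and minocycline 4 and 6. The slope of Akap6 was 1.10 ± 0.11 (r = 0.95), that of the kinase subunit Prkar2a 0.97 ± 0.11 (r = 0.95) and that of the phosphodiesterase Pde3a 1.21 ± 0.17 (r = 0.90). Called against Atp2a2 were Gnai3, an inhibitory G protein (r = −0.78), Arrb2, a receptor-desensitising arrestin (r = −0.75), and Rapgef3, a cAMP-activated exchange factor (r = −0.81). The list had 6 members called with Atp2a2 and 0 against it without Isoproterenol and minocycline 4 and 6 (median r 0.28).

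Fatty acid oxidation genes were called with Atp2a2 in 17 of 30 members and against it in 0, with a median r of 0.74. Ppara, the nuclear receptor that drives this pathway, had 6.28 to 18.1 CPM (median 11.3) and 3.05 to 18.9 CPM (median 10.1). Its slope of 2.70 ± 0.25 (r = 0.96, adjusted p = 2.81e-06) was steeper than those of the enzymes Acadm (0.69 ± 0.08) and Hadhb (0.63 ± 0.08). All 3 were lowest in Isoproterenol and minocycline 4. Of the 30 members, 4 were called without Isoproterenol and minocycline 4 and 6, with a median r of 0.59. Of 40 nuclear genes of oxidative phosphorylation, 6 were called with Atp2a2 and 0 against it, and their median r was −0.09. The share called with it was near the 12.2% of all genes, where 9.48% of all genes were called against it. The 6 were Sdha (r = 0.97), Sdhd (0.91), Ndufs1 (0.95, overlapping Eef1b2), Ndufa10 (0.84), Uqcrc2 (0.88) and Atp5a1 (0.94), which belong to complexes I, II, III and V of the respiratory chain. Without the same 2 libraries 1 of the 40 was called. Small complex IV subunits such as Cox6a2 gave r = −0.52 and were not called. None of the 13 mitochondrially encoded genes was called (median r −0.22).

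Genes of hypertrophy and wall stress were called against Atp2a2 in 8 of 26 members and with it in 1, and in 2 and 0 without Isoproterenol and minocycline 4 and 6. Acta1, skeletal α-actin, which the stressed ventricle expresses again, had 79.4 to 174 CPM (median 112) in isoproterenol and 65.8 to 384 CPM (median 136) in the libraries with minocycline. The highest libraries were Isoproterenol and minocycline 4 and 6, and the lowest was library 3 of that treatment. Its slope was −2.03 ± 0.39 (r = −0.86, adjusted p = 0.00563), and it overlaps the predicted gene Gm20388. Ankrd1, a titin-binding stretch-response protein, had a slope of −0.98 ± 0.23 (r = −0.80, adjusted p = 0.0124), with Isoproterenol 5 (806 CPM) and Isoproterenol and minocycline 4 (799.9 CPM) highest. Thbs4, a matricellular protein induced in loaded hearts, gave r = −0.84, and Timp1, an inhibitor of metalloproteinases, −0.81. Classical stress genes that did not pass the test were Nppa and Myh7. Nppa gave r = −0.52 (adjusted p = 0.335), and Myh7, the β-myosin heavy chain, r = −0.45 (adjusted p = 0.393). Both were strongly negative within isoproterenol (−0.94 and −0.88) and less so with minocycline (−0.45 and −0.38), and whether the treatments differ in this was not tested. Myh7 overlaps the non-coding gene Mhrt.

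**Figure D3:**
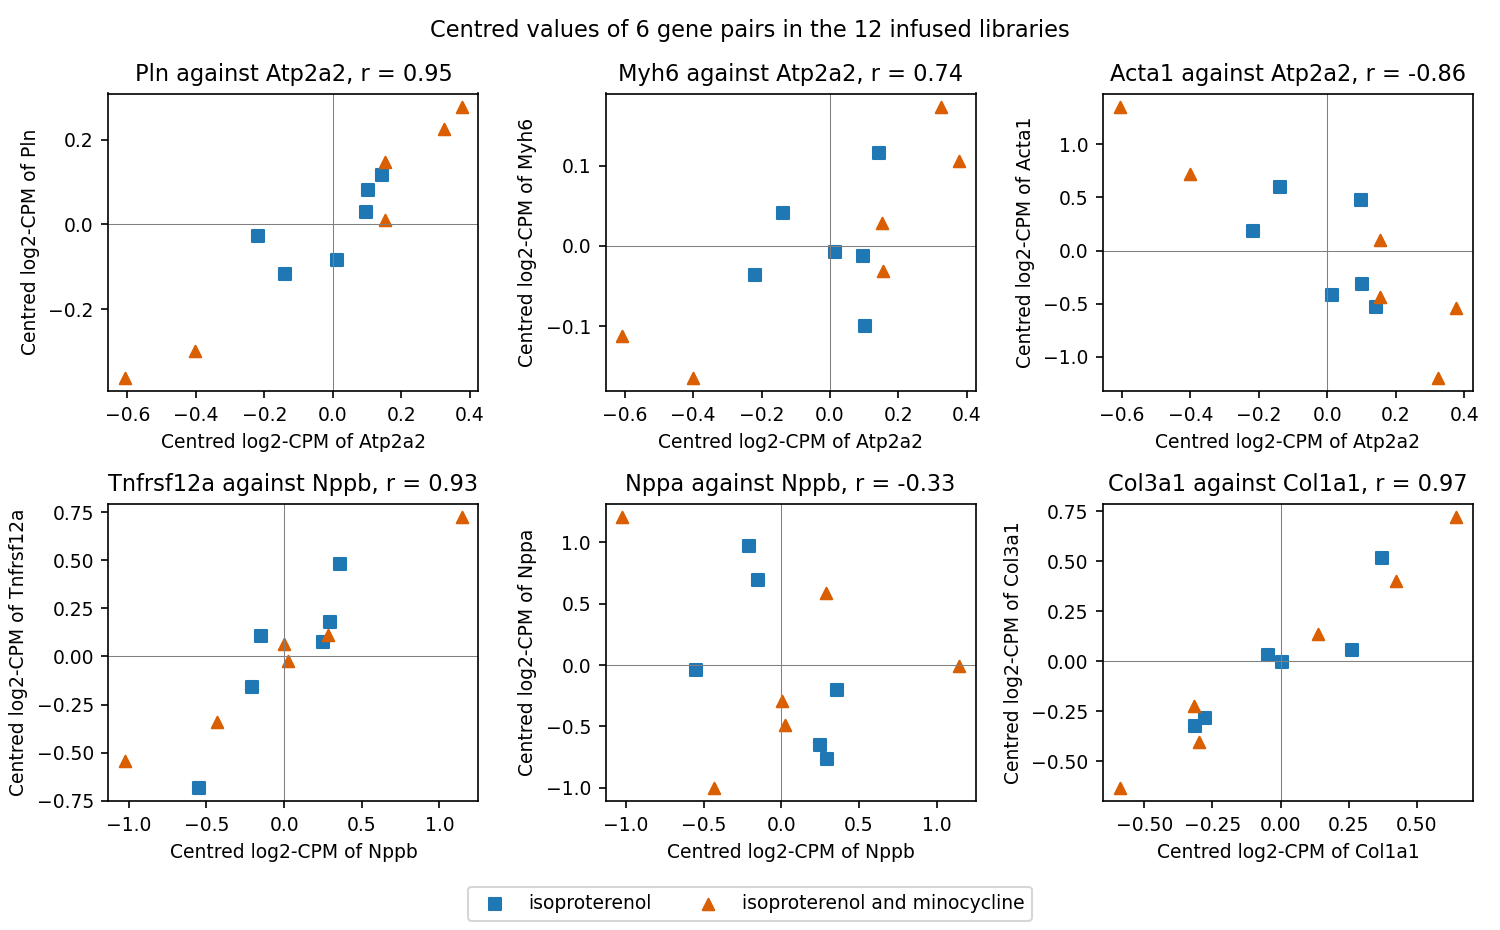
Centred log2-CPM of 6 gene pairs in the 12 infused libraries, blue squares isoproterenol and orange triangles isoproterenol and minocycline. Pln rises and Acta1 falls along Atp2a2, Myh6 rises less, Tnfrsf12a rises along Nppb, Nppa forms no line with Nppb (r = −0.33), and Col3a1 rises along Col1a1.

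Among the genes most opposed to Atp2a2, Tpm3 came first, a tropomyosin of non-muscle and slow-muscle cells. It had 56.9 to 63.4 CPM (median 60.2) and 47.7 to 78.0 CPM (median 58.4) and was highest in Isoproterenol and minocycline 4 and 6. It gave r = −0.96, rho = −0.96 (unadjusted exact permutation p = 1.93e-05 for r, n = 12), −0.83 without the 2 farthest libraries, and a slope of −0.69 ± 0.09 (edgeR adjusted p = 2.24e-05). Eml3, Meox1, Lasp1, Cnn3, Fam219a, Fbln2, Tbx2, Emp1 and Ehd2 followed at r = −0.96 to −0.94. Meox1 is a transcription factor of activated fibroblasts, Fbln2 a matrix protein, Tbx2 a developmental repressor of chamber genes, and Lasp1 and Cnn3 bind actin. Cnn3 was among the least dependent on the extreme libraries (r = −0.96 without the 2 farthest).

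Collagens and other matrix genes were opposed to Atp2a2. Of 15 fibrillar and fibril-associated collagens, Col1a1 included, 11 were called against it, 0 with it, and all 15 had a negative r (median −0.81). Col1a1 is an anchor, so its own relation to Atp2a2 is a description with no test. Col5a2, a chain of the fibril-nucleating type V collagen, gave r = −0.93 with a slope of −1.08 ± 0.12, Col8a1 r = −0.91, Col16a1 −0.91, Col1a2 −0.82 and Col3a1 −0.78. Among collagen-processing genes, 11 of 21 were called against Atp2a2, led by the lysyl oxidase Loxl3 (r = −0.92, overlapping Htra2) and the procollagen proteinase Bmp1 (−0.87). Of 30 other matrix genes, 19 were called against it and 0 with it (median r −0.72). Sparc, a collagen-binding matricellular protein, had 342 to 517 CPM (median 399) and 272 to 531 CPM (median 338). The highest libraries were Isoproterenol and minocycline 4 and Isoproterenol 3. Its slope was −0.91 ± 0.11 (r = −0.92, adjusted p = 2.22e-05). Postn, periostin, gave r = −0.85, tenascin C (Tnc) −0.89 and versican (Vcan) −0.85. Of 19 genes of TGF-β signalling, 4 were called against Atp2a2, among them the ligands Tgfb1 (r = −0.90) and Tgfb3 (−0.83, overlapping Ttll5) and the endothelial receptors Eng (−0.84) and Acvrl1 (−0.81). Without Isoproterenol and minocycline 4 and 6, those called against Atp2a2 were 4 of 15 collagens (median r −0.72), 6 of 21 collagen-processing genes (−0.60), 5 of 30 other matrix genes (−0.65) and 1 of 19 genes of TGF-β signalling (−0.28).

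Markers of fibroblasts, mural cells, macrophages and endothelium were mostly opposed to Atp2a2 over the 12 libraries. Fibroblast markers were called against it in 15 of 28 members and with it in 0 (median r −0.70), smooth muscle and pericyte markers in 15 of 19 and 1 (−0.76), macrophage markers in 13 of 25 and 0 (−0.67), and endothelial markers in 12 of 24 and 1 (−0.62). Examples are the fibroblast and pericyte marker Cd248 (r = −0.88), the mural receptor Pdgfrb (−0.92), the complement gene C1qc of macrophages (−0.89) and the endothelial factor Sox17 (−0.92). Pdgfrb had 56.9 to 77.7 CPM (median 66.7) and 57.0 to 86.0 CPM (median 66.2), highest in Isoproterenol and minocycline 6 and 4. C1qc had 36.6 to 49.3 CPM (median 39.0) and 32.3 to 54.0 CPM (median 41.5), highest in Isoproterenol and minocycline 4 and 6. The endothelial list had a median r of −0.19 within isoproterenol and −0.83 with minocycline, and without Isoproterenol and minocycline 4 and 6 it was −0.03, with 2 members called with Atp2a2 and 1 against it. The fibroblast, mural and macrophage medians without these libraries were −0.65, −0.69 and −0.52, with 1, 9 and 5 members called against Atp2a2. No member was called among atrial markers (0 of 10, median r −0.38), nerve and Schwann cell markers (0 of 9, −0.42), mast cell and neutrophil markers (0 of 6, −0.22) and red cell markers (0 of 7, 0.42). Of the adipocyte list 1 of 10 was called with Atp2a2 and 0 against it (median r −0.37), of the mesothelial list 1 of 6 against it (−0.51) and of the lymphocyte list 1 of 4 against it (−0.39). Without Isoproterenol and minocycline 4 and 6, the atrial median was −0.64 (0 of 10 called) and the adipocyte median −0.72 (2 of 10 called against Atp2a2, 0 with it). The nerve median was then −0.58 (1 of 9 against), the mast cell and neutrophil −0.50, the mesothelial −0.42, the red cell 0.35 and the lymphocyte 0.26, with 0 called in the last 4. Within isoproterenol the atrial and adipocyte medians were −0.70 and −0.67, and with minocycline −0.31 and −0.30.

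Ribosomal protein genes were also opposed to Atp2a2, with 12 of 40 called, 0 in its direction and a negative r in all 40 (median −0.61). The slopes were shallow: Rps23 had −0.40 ± 0.09 (r = −0.87) and Rpl19 −0.31 ± 0.08 (r = −0.85). With plain library totals 2 of the 40 were called, and 6 without Isoproterenol and minocycline 4 and 6. Immediate early genes (0 of 23, median r 0.20) and clock genes (0 of 19, median r 0.06) had no called member. Of 23 cell cycle genes, 2 were called with Atp2a2 and 1 against it, a smaller share than the 21.7% of all genes, and the median r was −0.31. The called members were the cyclin Ccnd2 (r = 0.92) and Cenpf (r = 0.85) with Atp2a2 and Ccnd1 (r = −0.73) against it.

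**Figure D4:**
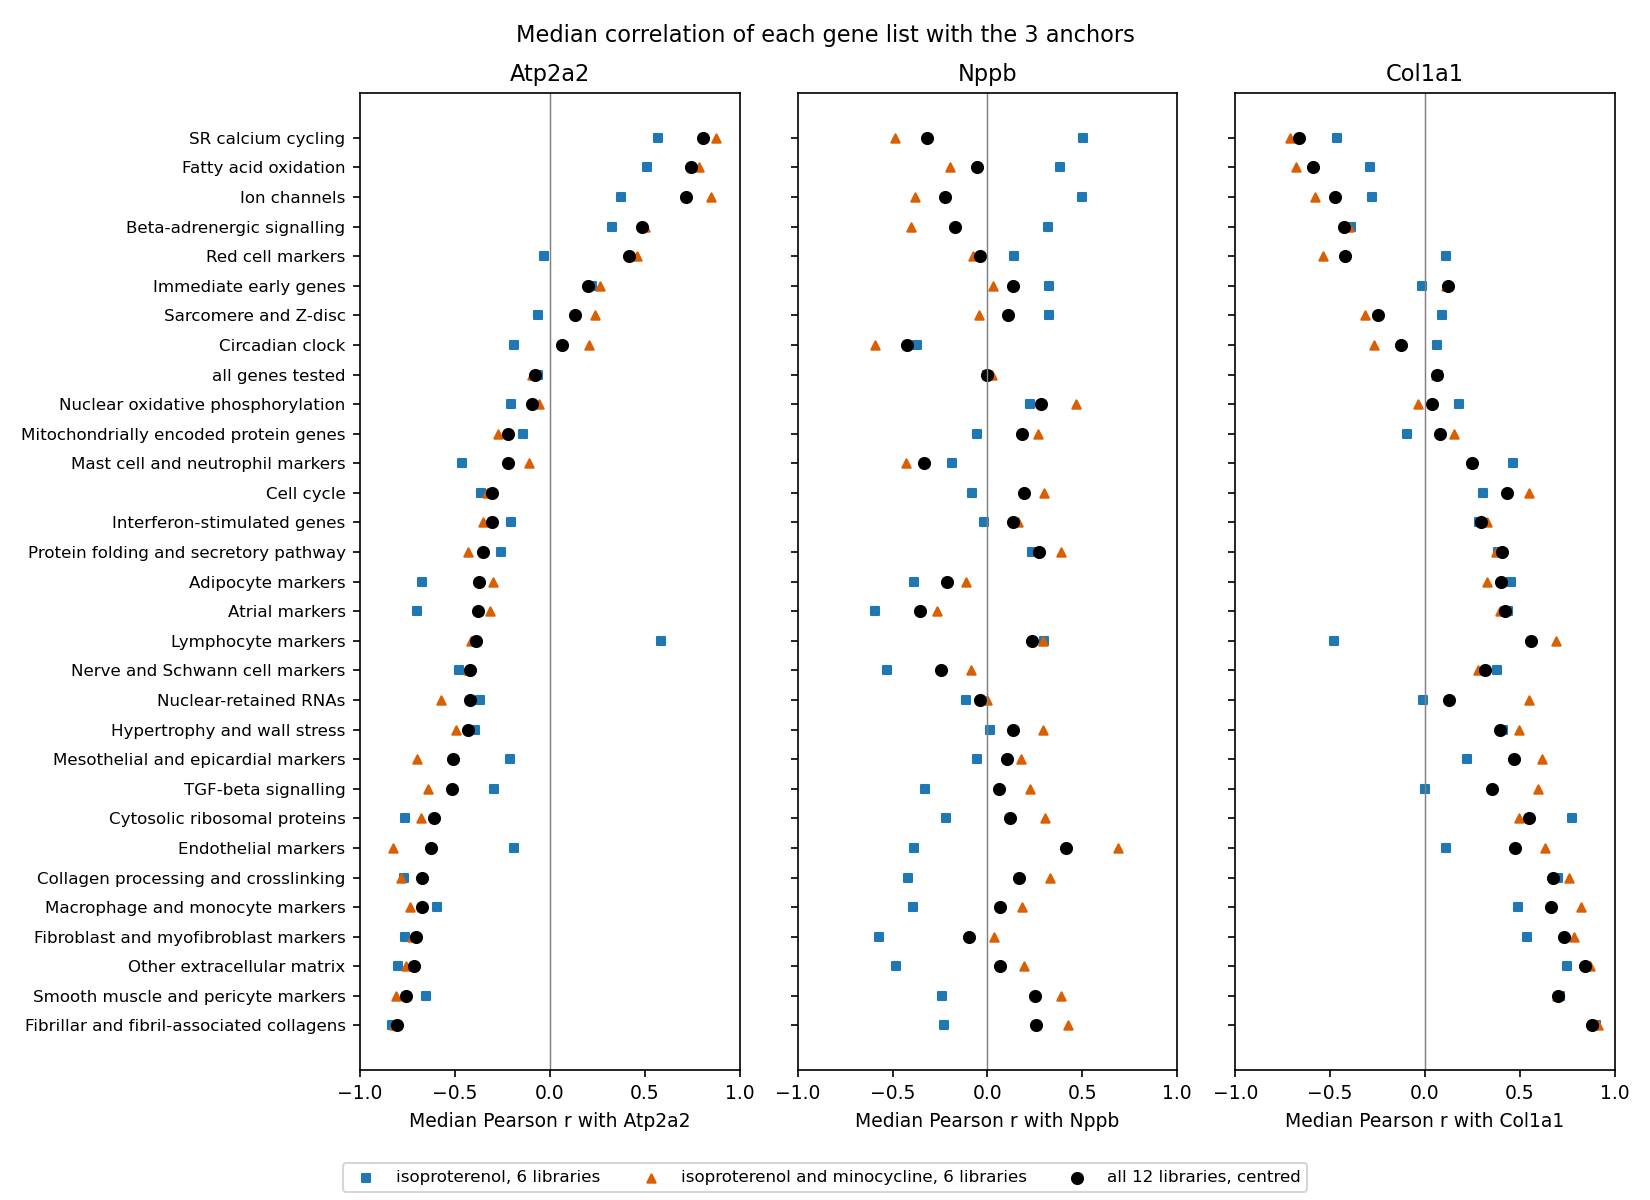
Median centred r of each gene list with Atp2a2, Nppb and Col1a1, ordered by the median for Atp2a2; black points use the 12 libraries, blue squares the 6 isoproterenol and orange triangles the 6 isoproterenol and minocycline libraries. Calcium cycling, fatty acid oxidation and ion channels lie at the positive end for Atp2a2 and collagens at the negative end, and the order is inverted for Col1a1.

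The composition of transcripts moved with the same axis. Genes called with Atp2a2 had a median transcript GC content of 47.4% and length of 4206 bases, and those called against it 54.0% and 3072.5 bases, where all tested genes had 50.2% and 3161 bases. In each library, the fitted log2 difference was taken between the mean of GC-rich genes (55% GC or more) and that of GC-poor genes (under 40%). It ranged from −0.14 to 0.18 in isoproterenol and from −0.14 to 0.24 with minocycline, highest in Isoproterenol 5 and Isoproterenol and minocycline 6. This difference correlated with Atp2a2 at r = −0.75 (rho = −0.72) and with Col1a1 at r = 0.84 (rho = 0.88), given as a description (n = 12). With this trend removed from every library, 1660 genes varied with Atp2a2 and 989 against it. Of the calcium-cycling list 11 were then called with it, of the fatty acid oxidation list 19, and of the collagens 11 against it. The sarcomere median r became 0.52. The mitochondrial share of counts (r = −0.45), the mean of 3 atrial markers (r = −0.38) and the log2 total (r = 0.02) did not pass an exact permutation test with Atp2a2. The smallest p adjusted over the 9 relations of these 3 measures with the 3 anchors was 0.588. The atrial mean gave r = −0.70 with Atp2a2 within isoproterenol, −0.31 with minocycline and −0.67 without the 2 libraries farthest in Atp2a2. In the same order, the mitochondrial share gave −0.13, −0.65 and −0.006, and the log2 total −0.13, 0.11 and −0.20. These values from fewer libraries were not tested.

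Each treatment gave its own estimate from 6 libraries, over the genes kept in the 12 libraries. In the isoproterenol libraries alone, 79 genes were called with Atp2a2, and 78 of these had the same sign in the 6 libraries with minocycline, 72 of them with an unadjusted p under 0.05. Of the genes with a positive slope in isoproterenol, called or not, 69.3% had the same sign in the other treatment and 31.9% also an unadjusted p under 0.05. Of 34 genes called against Atp2a2 in isoproterenol, 33 had the same sign in the other treatment and 23 also an unadjusted p under 0.05, beside 69.1% and 21.0% of all genes with a negative slope. In the other direction, 1391 genes were called with Atp2a2 in the libraries with minocycline. In isoproterenol, 1294 of them had the same sign and 578 also an unadjusted p under 0.05, beside 67.7% and 14.7% of all genes with a positive slope. Of 721 genes called against Atp2a2, 615 had the same sign and 198 also an unadjusted p under 0.05, beside 70.7% and 11.5% of all genes with a negative slope. Across genes, which are not independent replicates, the r values of the 2 treatments correlated at 0.54 for Atp2a2, 0.45 for Col1a1 and −0.17 for Nppb. Akap6, Kcnd2, Mtr, Nebl and Rap1gap2 with Atp2a2 and Col16a1 and Sparc against it were called under each of the 32 alternative settings. The remaining 94 of 101 named calls for Atp2a2 were lost under at least 1, as were all 88 named calls for Col1a1 and all 3 for Nppb.

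**Figure D5:**
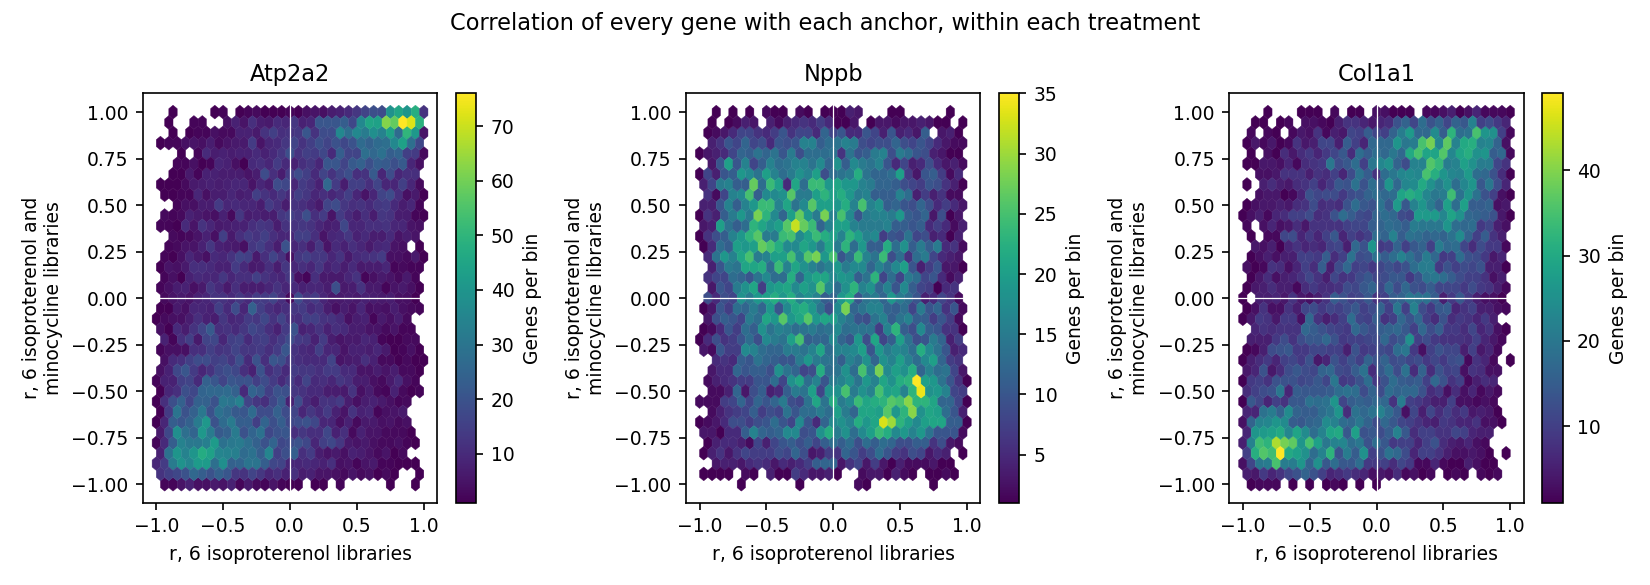
Centred r of every tested gene with each anchor in the 6 isoproterenol libraries (horizontal) and the 6 isoproterenol and minocycline libraries (vertical), as counts of genes per hexagon. For Atp2a2 and Col1a1 the genes gather in the lower left and upper right (correlation across genes 0.54 and 0.45), and for Nppb they do not (−0.17).

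Nppb stood apart from both axes. Only 3 of 13075 genes (0.0229%) were called with it, and edgeR called 0 against it. At an unadjusted p under 0.05 there were 596 genes with and 446 against. DESeq2 called 38 with and 20 against, limma-voom 1 against, and the exact permutation of r with adjustment over all genes called 0. Tnfrsf12a, which encodes the TWEAK receptor Fn14, was closest among the called genes. It had 14.4 to 32.5 CPM (median 24.7) in isoproterenol and 23.3 to 56.2 CPM (median 34.5) with minocycline, lowest in Isoproterenol 2 and highest in Isoproterenol and minocycline 6, the libraries with the lowest and the highest Nppb. Tnfrsf12a followed Nppb with r = 0.93 and rho = 0.94 (unadjusted exact permutation p = 1.54e-05 for r, n = 12). This p is the smallest of all 13075 genes and did not pass after adjustment over them. Its r was 0.90 within isoproterenol, 0.99 with minocycline and 0.90 without the 2 farthest libraries. The slope of Tnfrsf12a was 0.67 ± 0.08 (edgeR adjusted p = 0.00963). Wt1, an epicardial transcription factor, had 3.69 to 10.6 CPM (median 5.54) and 2.30 to 12.2 CPM (median 4.09), highest in Isoproterenol and minocycline 6. It gave r = 0.88 and a slope of 1.16 ± 0.17 (adjusted p = 0.0348). Nav3, a microtubule-associated protein, gave r = 0.90 and 0.84 ± 0.13 (adjusted p = 0.0485), with 1.76 to 6.26 CPM over the 12 libraries. All 3 calls were lost without Isoproterenol and minocycline 6, with an adjusted p of 0.706 for Tnfrsf12a and 0.9995 for both Wt1 and Nav3. Of the 32 alternatives, the call was lost under 7 for Tnfrsf12a, 15 for Wt1 and 21 for Nav3.

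Nppa did not follow Nppb (r = −0.33, rho = −0.27, exact permutation p = 0.355, n = 12; −0.59 within isoproterenol, −0.23 with minocycline, −0.11 without the 2 farthest libraries). Nppa had 48.1 to 161 CPM (median 75.2) and 74.7 to 345 CPM (median 135) and was highest in Isoproterenol and minocycline 2, the library with the second-lowest Nppb of all. That library was also highest in the atrial markers Myl7 (212 CPM), Myl4 (243 CPM) and Sln (43.8 CPM), and the part of atrial tissue in the Nppa values was not tested. Acta1 (r = 0.32), Ankrd1 (0.20) and Myh7 (−0.14) were not called with Nppb either. Emcn, the endothelial sialomucin endomucin, gave r = 0.91 and rho = 0.97, 0.94 within each treatment and 0.95 without the 2 farthest libraries, but its adjusted p was 0.0857. It had 37.2 to 51.9 CPM (median 49.3) and 41.9 to 64.5 CPM (median 51.2), lowest in Isoproterenol 2 and highest in Isoproterenol and minocycline 6. Strongest in the opposite direction, without passing the test, were Zbtb16, a transcription factor induced by glucocorticoids (r = −0.90, adjusted p = 0.0874), and Herpud1, a gene of the endoplasmic reticulum stress response (r = −0.89, adjusted p = 0.0857). Zbtb16 spanned 13.9 CPM in Isoproterenol and minocycline 6 to 107 CPM in library 2 of the same treatment.

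No list had more than 1 member called with Nppb. The circadian clock list had a median r of −0.42, with Cry2 at −0.71, Tef at −0.68, Hlf at −0.67 and Per3 at −0.61 on one side and Arntl at 0.54 on the other. Its members were all uncalled, and the labels state no hour of tissue collection. The endothelial list had a median r of 0.41 with Nppb, which was −0.39 within isoproterenol and 0.69 with minocycline. The calcium-cycling list went from 0.50 to −0.49 and the ion channel list from 0.50 to −0.38 between the same sets of libraries, and these differences were not tested. Among stress genes, Ankrd23 (r = 0.74), Gdf15 (0.72) and Rcan1 (0.69) had the highest r with Nppb and were not called.

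Col1a1 called 1463 genes (11.2%), 700 with it (5.35%) and 763 against it (5.84%). The exact permutation of r, adjusted over all genes, called 4 with it and 0 against it. Leaving out 1 library at a time gave 278 to 799 with it and 194 to 1256 against it, fewest without Isoproterenol and minocycline 6. With plain totals 65.6% of calls were in the direction of Col1a1, in place of 47.9% (718 with and 377 against). Libraries high in Col1a1 were high in the other collagens, in matrix and fibroblast genes and in macrophage genes, and lower in calcium-cycling, ion channel and fatty acid oxidation genes. Col6a2, a chain of the beaded-filament type VI collagen, had 72.3 to 109.8 CPM (median 77.9) in isoproterenol and 54.9 to 108 CPM (median 72.6) in the libraries with minocycline. Its highest libraries were Isoproterenol 3 and Isoproterenol and minocycline 6, also the highest of their treatments in Col1a1. It gave r = 0.97, rho = 0.97 (unadjusted exact permutation p = 5.79e-06 for r, n = 12), 0.94 and 0.99 within the treatments, 0.95 without the 2 farthest libraries, and a slope of 0.80 ± 0.08 (edgeR adjusted p = 2.67e-05). Col3a1, the fibrillar partner of type I collagen, had 173 to 311 CPM (median 219.6) and 107 to 274 CPM (median 163) and rose in step with Col1a1 (slope 1.05 ± 0.08, r = 0.97, adjusted p = 5.20e-06). Col5a1, Clic1, Selm, Col6a1, Adamts2, Col15a1, Bop1 and Loxl1 followed at r = 0.97 to 0.94. Adamts2 removes the amino propeptide of procollagen and Loxl1 is a lysyl oxidase of elastic fibres, and Bop1 overlaps Mroh1.

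Of 14 collagens besides Col1a1, 12 were called with it and 0 against it (median r 0.88, all genes 0.06). Collagen-processing genes were called in 10 of 21 members (median r 0.67), such as the lysyl oxidase Loxl2 (r = 0.92) and the propeptidase enhancer Pcolce (0.93). Other matrix genes were called in 23 of 30 (median r 0.84), with Sparc and the secreted Wnt modulator Sfrp2 at r = 0.92, the microfibril gene Fbn1 at 0.90 and Vcan at 0.89. Fibroblast markers were called in 17 of 28 (median r 0.73), with Cd248 at 0.89, and macrophage markers in 12 of 25 (median r 0.66), with C1qc at 0.87 and Cd68 at 0.85. None of the members of these 5 lists was called against Col1a1. The ligand Tgfb1 gave r = 0.90, with 0.99 within isoproterenol and 0.88 with minocycline. Of the endothelial list 4 of 24 were called with Col1a1 (median r 0.47). Stress genes were called with it in 5 of 26, including Ankrd1 (slope 0.82 ± 0.16, r = 0.83), Acta1 (1.53 ± 0.36, r = 0.81) and Timp1 (1.06 ± 0.19, r = 0.84), whereas Nppa (r = 0.63, adjusted p = 0.139) and Myh7 (r = 0.38) were not called.

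On the other side, calcium-cycling genes were called against Col1a1 in 8 of 18 members, Atp2a2 included (median r −0.66). Atp2a2 is an anchor, so its own relation to Col1a1 is a description with no test. Ryr2 gave r = −0.79 and Pln −0.79. Ttn gave −0.85, the sodium channel subunit Scn4b −0.84 and the α-adrenergic receptor Adra1a −0.84. Fatty acid oxidation genes were called against it in 9 of 30 (median r −0.59), with the carnitine-acylcarnitine carrier Slc25a20 at −0.85. Dynll2, a dynein light chain that also binds myosin V, was the gene most opposed to Col1a1. It had 237 to 271 CPM (median 265) and 215 to 281 CPM (median 257) and was lowest in Isoproterenol and minocycline 6 and 4. It gave r = −0.97 with a shallow slope of −0.30 ± 0.06 (adjusted p = 0.00853). Garem, Rhot1, Rpap3, Polr2b, Zbtb20, Ptp4a2, Vps13a, Cpeb3 and Azi2 followed at r = −0.95 to −0.91, where Polr2b overlaps Igfbp7 and Cpeb3 overlaps March5. Zbtb20, a transcriptional repressor, reached r = −0.99 within isoproterenol and −0.91 with minocycline.

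The number of calls for Col1a1 depended on which libraries were left out. Without the 2 libraries farthest from the median of Col1a1, Isoproterenol and minocycline 6 and 1, 455 genes were called with it and 721 against it. Without Isoproterenol and minocycline 4 and 6, 29 genes were called with it and 1 against it. The collagens then had a median r of 0.85 with 6 of 14 called, the other matrix genes 0.79 with 6 of 30 called, the fibroblast list 0.67 with 0 called and the macrophage list 0.63 with 0 called. None of the calcium-cycling or fatty acid oxidation genes was then called (median r −0.38 and −0.46). With the GC trend removed, 248 genes were called with Col1a1 and 253 against it, among them 9 collagens and 18 other matrix genes. Called genes had a median GC content of 55.04% (with) and 46.1% (against). When Nppb and Col1a1 entered the fit beside Atp2a2, 435 genes varied with Atp2a2 and 229 against it. Of the calcium-cycling list 6 of 17 were called, of fatty acid oxidation 8 of 30, of ion channels 8 of 26, of the fibroblast list 5 of 28 and of the collagens 3 of 15. When Atp2a2 and Nppb entered beside Col1a1, 4 genes were called with it and 1 against it, and the collagens had a median r of 0.75 with 3 called.

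Promoter windows were searched on both strands for the letters named above and for TGANTCA, which AP-1 factors bind, as well as CCAAT, the NF-Y box, and also GGGCGG, the SP1 box, each counted on its own where matches overlap. Windows of a single chromosome were left out of the search. Those searched covered 9918 of the 13076 tested genes, among them 1218 called with and 910 called against Atp2a2. CATTCC was in 13.7% of windows of genes with Atp2a2, 17.6% of those against it, 18.1% of those with Col1a1 and 11.3% of those against Col1a1, where all tested genes had 14.6%. TGANTCA was in 9.12% of windows of genes against Atp2a2 and 9.06% of those with Col1a1, where all had 6.19%. GATAA lay between 18.3 and 20.4% in these 4 sets, near the 19.1% of all genes. CCAAT was in 35.4 to 44.1% and GGGCGG in 65.9 to 73.5% of windows of the sets, beside 42.6 and 68.4% of all. These shares carry no test, and the sets also differ in GC content.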

How the data were processed

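The data are polyadenylated-RNA libraries of mouse left ventricle, read as pairs of 150 bases on an Illumina NovaSeq, per the labels' protocols. The authors deposited a table of read counts per gene for 48709 genes, which was used as deposited. Trimming was done in CLC Genomics Workbench 21.0.3 (quality limit 0.05, at most 2 ambiguous bases), and its RNA-seq module was used for the transcriptome, per the labels' protocols. The sources used here do not name the genome build, the annotation or the strand setting. Of the tested identifiers, 13058 are in GENCODE M21 on GRCm38, all at overlapping positions and 80.8% at identical ones. The number of per-sample columns matching no library was 0.

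Columns were matched to libraries by the number in the description, and the protocol speaks of pooled RNA. Genes passing edgeR's filterByExpr in the 12 infused libraries were kept: 13076 genes with 99.92 to 99.94% of each library's counts. Each gene was fitted on treatment plus the centred anchor log2-CPM (TMM, prior count 2) with edgeR 4.0.16 in R 4.3.3 (glmQLFit with robust estimation, glmQLFTest, 2-sided), adjusted by Benjamini-Hochberg over 13075 genes and called at 0.05. The biological coefficient of variation was 13.6%. The standard error is the slope over the square root of F. Pearson's r and Spearman's rho of centred values had exact 2-sided p-values over all 518400 pairings within treatments, printed unadjusted for single genes. The fits were tested on simulated data. Depth limits low genes: at 14203041 counts, 1 CPM is about 14 reads.

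Anchors, the 30 gene lists (627 symbols, 619 matched, 578 tested) and the tests were chosen with earlier results of these data known. Lists are described by counts and medians. Named are, per anchor, the 10 called genes of highest and the 10 of lowest r (at least 1 CPM on average, no predicted name, the same sign in both treatments), fewer where fewer were called, with up to 5 uncalled ones beside them, up to 4 called members of each list by smallest p, and 18 genes reported in any case. List members given with an r alone (such as Adrb1, Gnai3, Myl3, Cox6a2, Cry2, Gdf15) were chosen after their values were seen. A gene is marked as overlapping where a neighbour within its span has at least 20% as many counts. Alternatives were RLE or plain totals, other filters, no mitochondrial genes, DESeq2 1.42.0, limma-voom (limma 3.58.1), exact permutation, ranks, another prior count, 4 covariates and left-out libraries. Some results are not reported here.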

Additional observations from a re-analysis of the deposited data

Results flagged for a closer look

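Within each treatment, 144 sets of 6 values were examined for a single library set far apart from the others, and 9 were found (gap over range above 0.625, which chance exceeds in about 1 in 20 sets). Among the atrial genes, Isoproterenol 5 was highest in Myl7 (99.5 CPM, next 41.5), Myl4 (120.3 CPM, next 50.4) and Sln (18.2 CPM, next 6.76). Isoproterenol and minocycline 2 was highest in the same genes, with Myl7 at 212 CPM (next 72.2), Myl4 at 243 CPM (next 99.1) and Sln at 43.8 CPM (next 14.7). Without these 2 libraries, 98 of the 101 named calls for Atp2a2 and 78 of the 88 for Col1a1 were made again, and 0 of the 3 for Nppb. Isoproterenol 5 was also highest in Ankrd1 (806 CPM, next 556) and Bop1 (16.2 CPM, next 14.8). Wt1, 1 of the 3 genes called with Nppb, was highest in Isoproterenol and minocycline 6 (12.2 CPM, next 5.13), which is also the library highest in Nppb.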

How the results depend on the processing

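The counts with and against each anchor were recomputed under 32 alternatives. No paired analysis was possible because library numbers are not shared between the groups. Leaving out 1 library at a time gave 1066 to 1789 genes with and 666 to 1369 against Atp2a2 (lowest with count without Isoproterenol and minocycline 4; against, 794 without that library and 666 without library 5). For Nppb it gave 0 to 5 and 0 to 2, and for Col1a1 278 to 799 and 194 to 1256. The Col1a1 counts fell most without Isoproterenol and minocycline 6 (278 and 194), were 430 with it without Isoproterenol 5, and 328, 323 and 334 without Isoproterenol and minocycline 3, 4 and 5 (426, 293 and 455 against), and rose to 1256 against it without library 1. Plain totals gave 522 genes against Atp2a2 and 377 against Col1a1. Adding the mean of Sln, Myl7 and Myl4 to the fit gave 27 and 11 for Nppb and 379 and 345 for Col1a1. The other 2 anchors as covariates gave 435 and 229 for Atp2a2, 28 and 57 for Nppb, 4 and 1 for Col1a1. Without the 2 libraries farthest from the median, Atp2a2 had 485 and 235, Nppb 0 with it and Col1a1 455 with it and 721 against it. With low counts filtered anew within the 6 libraries, which left 12306 genes for isoproterenol and 12372 with minocycline in place of the 13075 behind the within-treatment counts above, isoproterenol libraries alone gave 74 and 33 for Atp2a2, 3 against Nppb and 3 and 5 for Col1a1; those with minocycline 752 against Atp2a2, 0 with Nppb and 185 and 64 for Col1a1. Exact permutation gave 679 against Atp2a2, 0 with Nppb, 4 and 0 for Col1a1. For Nppb, no filter gave 2 against, the mitochondrial share as a covariate 1 with, the log2 total 1 against, limma-voom 1 against and DESeq2 38 and 20. Alternatives chosen after seeing the data were 3. Without Isoproterenol and minocycline 4 and 6, counts were 485 and 235 for Atp2a2 (2754 of 2839 calls had the same sign), 1 and 1 for Nppb, 29 and 1 for Col1a1. Without the 2 libraries highest in Myl7, Nppb had 0 with it. The GC trend removed gave 7 and 2 for Nppb and 248 and 253 for Col1a1. Single relations changed sign with the other anchors as covariates: Col3a1 with Atp2a2 (r = 0.17), Postn with Nppb (r = −0.90, adjusted p = 0.00833), and Srl (0.068), Tie1 (−0.067), Acsl1 (0.099) and Casq2 (0.067) with Col1a1. Igkc with Atp2a2 changed sign without the 2 farthest libraries (r = 0.56) and in isoproterenol alone (0.81). Tie1 (−0.040) and Cdh5 (−0.27) with Col1a1 did so without Isoproterenol and minocycline 4 and 6. For changes not built into the alternative itself, the cause was not tested.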
